A study of Caenorhabditis elegans with 2 samples.

Results

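Regions bound by the tagged transcription factor ETS-4 were examined at 30 innate immune genes of the nematode Caenorhabditis elegans. The genes were taken from a list of names drawn up with earlier results of these data known, and no measured value enters the rule. Of the 19973 protein-coding genes of the annotation (Ensembl release 115, WBcel235, the same assembly as build ce11), all 30 listed names matched 1 gene each. They comprised 24 effectors, whose products act against microbes or are induced by them, and 6 signalling genes. A region was given to a gene when its summit lay in the gene's window, meaning the gene body or the 2000 bp upstream of the annotated 5' end. Chromatin immunoprecipitation with sequencing (ChIP-seq) was done on 1 group of 2 replicates, each from its own biosample of whole young adults at 73 h, of mixed sex, synchronised by starving L1 larvae after bleaching. The worms were strain RAF1713, which carries the insertion rrrSi400 on chromosome II (ets-4 with its own promoter and 3' UTR, fused to GFP, beside unc-119(+)) and the unc-119(ed3) mutation on chromosome III. Per the labels the precipitating antibody was against GFP, although the antibody field names ets-4. The transgene adds a copy of ets-4 to the genome, the tag is called eGFP in some labels and GFP-FLAG in others, and no pathogen is named. No other genotype or treatment was measured here, so every value describes enrichment within this group.

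The authors deposited 4 lists of regions. The list of each replicate and the list pooled from both held 30000 candidate regions each, described by the authors as peaks and background. The fourth list held 1102 regions kept by an irreproducible discovery rate (IDR) filter of the authors. These IDR regions were the top 1102 of the pooled list by signal. Signal is the peak caller's own value for a region, has no fixed unit and is compared only within 1 list. Ranks count from the highest signal in a list. Since a list of 30000 regions reaches deep into background, presence in it says little and the rank is given throughout. The number of reads behind a region is unknown, so its counting error cannot be given. The ets-4 gene itself, of which the insertion adds a copy, held 4 IDR regions, the best of rank 39. No precipitate from untagged worms was analysed here.

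In C. elegans, defence against microbes rests largely on the intestine and the epidermis, which secrete lysozymes, lectin-domain proteins and antimicrobial peptides. Many of these effector genes are induced through a kinase cascade in which the adaptor TIR-1 acts upstream of the kinases NSY-1, SEK-1 and the p38 kinase PMK-1. PMK-1 phosphorylates the bZIP factor ATF-7, while ZIP-2 is another bZIP factor that acts beside this cascade when pathogens or toxins block translation. ETS factors bind sequences with a GGAA core, and GATA factors, which specify and maintain the worm intestine, bind sequences such as TGATAA.

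The sequences below are the stretches of 30 bases, read on the strand of the gene from WBcel235, that hold TGATAA at the strongest regions of these genes. They are shown because TGATAA recurred among them. Strong regions without TGATAA, at lys-2 and zip-2 and elsewhere in tir-1 and atf-7, are not printed. Capitals mark TGATAA or, where it lies on the other strand, TTATCA, and the last line shows a run of a single base at the sek-1 summit with nothing marked.
lys-8, upstream, chrII:5585943-5585972, plus strand: gtacacagttacTGATAAcagagtgtgata
lys-8, upstream, chrII:5585964-5585993, plus strand: agtgtgatatcaTGATAAtgttttccgaaa
lys-8, upstream, chrII:5586021-5586050, plus strand: ttgccagctcttTGATAAagactataaatc
atf-7, intron, chrIII:4494608-4494637, minus strand: atgatggaaaatTGATAAaagacattggtc
spp-1, first exon, chrIII:10355587-10355616, minus strand: TTATCAgtgccgccgcgaagtTGATAAaag
clec-85, coding exon, chrIV:2854443-2854472, plus strand: cacacggcctgaTGATAAgtatattggaga
sek-1, upstream, chrX:7815018-7815047, plus strand: tgtcgtcgtttcTTATCActtgtttacgtg
tir-1, coding exon, chrIII:3870829-3870858, minus strand: acttttaaatgaTGATAActgtgaggattg
sek-1, upstream at the summit, chrX:7815051-7815080, plus strand: agtgccccccccccccccccccccccgatg

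Of the 30 members, 2 had an IDR summit in the window, the lysozyme gene lys-8 and the factor gene atf-7. That is 6.67% of the members, against 5.32% of all protein-coding genes (1063 of 19973), so the share lay near the background. Among effectors 1 of 24 was positive (4.17%), and among signalling genes 1 of 6 (16.7%). No test of this difference was made, since the members were listed with results of these data known and 6 genes are few. The 2000 bp upstream alone held an IDR summit for lys-8 and for no other member, 3.33% of members against 3.56% of all genes.

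The lys-8 region was the strongest of all members. It lay on II at 5585820 to 5586189, with its summit 173 bp upstream of the 5' end and nearest to lys-8 among protein-coding genes. The annotated noncoding RNA gene C17G10.12 lies within 500 bp of the summit. Its signal was 99.1 in the pooled list (rank 610), where IDR signals run between 79.4 and 429.9 with a median of 102.4. The 2 replicates ranked it unequally. In replicate 1 the overlapping region had rank 3271 (signal 27.4), with its summit 206 bp upstream, and in replicate 2 it had rank 362 (signal 71.6), with its summit 174 bp upstream. A region of this rank or better was present in the windows of 3.14% of all protein-coding genes.

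TGATAA occurred 3 times within 50 bp of the lys-8 summit on either side, the 3 lys-8 stretches printed above. Of all IDR regions 1.09% held 3 or more copies on either strand, and of all pooled regions 0.187%. At least 1 copy was present in 27.0% of IDR regions and 10.5% of pooled regions. The ETS words CCGGAA and, apart from it, CCGGAT, as well as AGGAAG, were not in this window, and the short core GGAA, which 55.5% of IDR regions and 65.7% of pooled regions hold, occurred once. The core GGAA is part of CCGGAA and of AGGAAG.

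In atf-7 the IDR region was internal. It lay on III at 4494464 to 4494833 in an intron, 4396 bp downstream of the gene's outermost 5' end but 199 bp upstream of the 5' end of the annotated transcript C07G2.2c.1. Among protein-coding genes the 5' end of C07G2.5 was nearest, 4389 bp away, hardly nearer than that of atf-7 at 4396 bp. No other protein-coding gene's window held the summit. Its pooled signal was 82.7, rank 1001 of the 1102 IDR regions, with ranks of 2037 (signal 31.2) in replicate 1 and 1035 (signal 50.7) in replicate 2. TGATAA and the GGAA core each occurred once within 50 bp of the summit. A further intronic region, 2763 bp downstream of the outermost 5' end, had pooled rank 1378 (signal 73.8) and the highest -log10 q value of the list, but was outside the IDR list. Replicate 1 ranked it 6380 and replicate 2 ranked it 841, so replicate 2 again placed it higher. None of the searched words lay within 50 bp of its summit.

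Of the other 6 regions in the atf-7 window, those at 5200 bp downstream in coding sequence (pooled rank 3199) and 1433 bp upstream (rank 3251) were the strongest. Both were strong in replicate 2 (ranks 1441 and 898), whereas in replicate 1 the first was not listed and the second had rank 23415. The upstream region also lay in the window of the protein-coding gene C07G2.5 and within the body of the chaperonin gene cct-5.

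**Figure D1:**
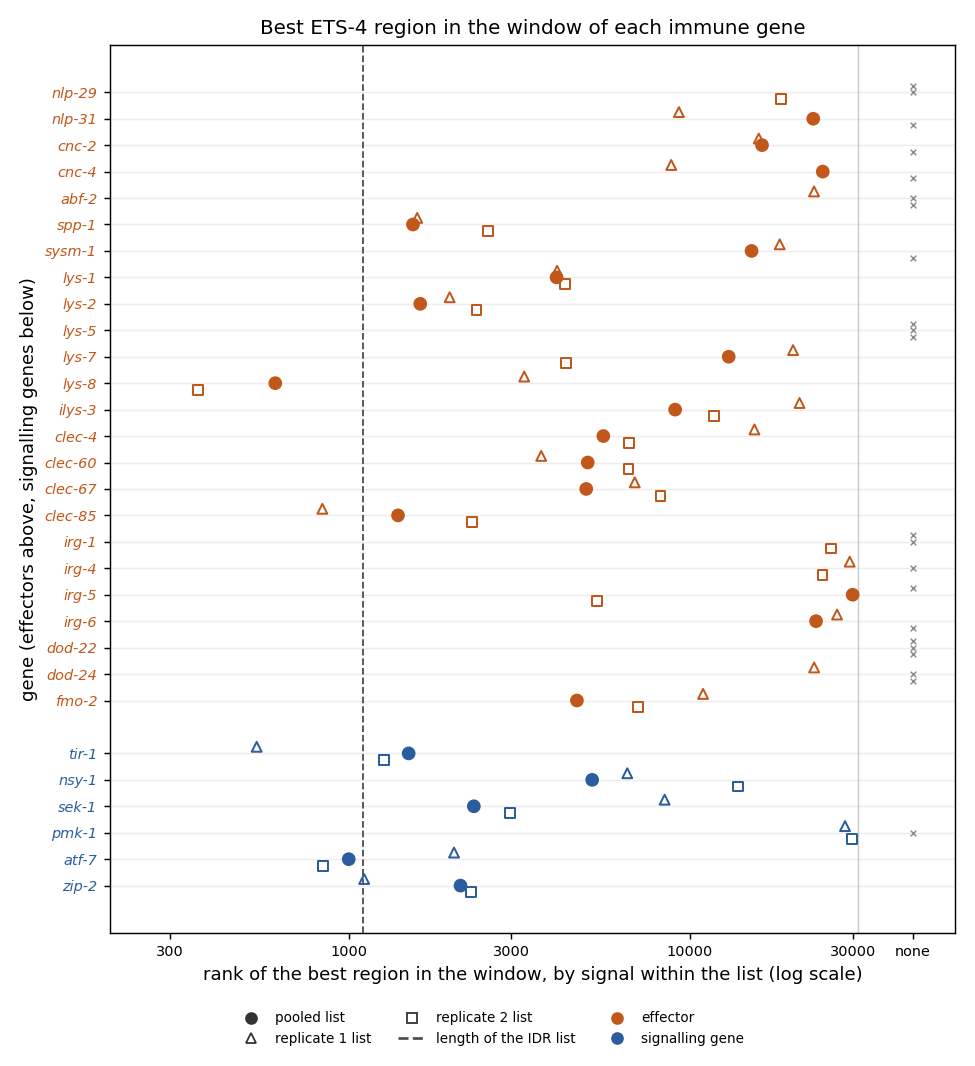
Rank of the best region in the window of each member (horizontal axis, log scale, 1 is the highest signal) in the pooled list (filled circles), in replicate 1 (triangles) and in replicate 2 (squares), with effectors in orange above signalling genes in blue. Grey crosses at the right stand for no region in a list, and the dashed line marks 1102, the length of the IDR list: of the filled circles, lys-8 (610) and atf-7 (1001) lie left of it.

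Among the 1393 pooled regions that share the highest -log10 q value, summits lay in the windows of the same 2 members, 6.67% against 6.7% of all genes. Further down, the pooled list was read to rank 3000. A region of that rank or better was in the window of 8 of 30 members (26.7%), against 13.5% of all protein-coding genes. They were 4 of 24 effectors (16.7%: lys-8, lys-2, spp-1 and clec-85) and 4 of 6 signalling genes (66.7%: atf-7, tir-1, zip-2 and sek-1). Signalling genes have longer windows (median 7773 bp) than effectors (median 3209 bp), and long windows hold more regions: 9.19% of all genes with a window of up to 4000 bp had such a region, 15.2% of those between 4000 and 8000 bp and 26.2% of those above 8000 bp. Within these classes the counts were 3 of 18 effectors up to 4000 bp, 1 of 6 effectors and 2 of 3 signalling genes (sek-1 and zip-2) between 4000 and 8000 bp, and 2 of 3 signalling genes (tir-1 and atf-7) above 8000 bp. For IDR regions the counts were 1 of 18 effectors up to 4000 bp (against 3.43% of all such genes), 0 of 6 effectors and 0 of 3 signalling genes between 4000 and 8000 bp (6.08%), and 1 of 3 signalling genes above 8000 bp (10.7%). The 8 members held 12 regions of rank 3000 or better, and replicate 2 ranked 8 of the 12 higher than replicate 1 did. The same share over all pooled regions of rank 3000 or better was not counted, so this is not read as a trait of these genes.

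Of the 7 antimicrobial peptide genes 1 held a region of rank 3000 or better. Over all protein-coding genes the share was 13.5%, and 9.19% with windows of up to 4000 bp, so 1 of 7 is too few to read. The saposin-like gene spp-1, whose product forms pores in bacterial membranes, had a region on III at 10355417 to 10355786, with its summit 66 bp downstream of the 5' end in the 5' UTR. Pooled rank was 1544 (signal 71.0), with ranks of 1589 (signal 33.2) in replicate 1 and 2562 (signal 37.8) in replicate 2. Both replicates thus placed it among their 3000 strongest, and no other protein-coding gene had this summit in its window. It held TGATAA once on each strand. Counted on either strand, 6.99% of IDR regions and 1.65% of pooled regions held 2 or more copies. The spp-1 region is outside the IDR list, and the share among regions near its rank was not counted.

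The other 6 peptide genes had no region of rank 3000 or better. For nlp-31, of the epidermal nlp-29 cluster that responds to fungal infection and wounding, the best pooled rank was 22981, and for the caenacin genes cnc-2 and cnc-4 the ranks were 16267 and 24505. The cnc-2 summit lay in coding sequence of srj-23, whose 5' end was nearer. The best region of sysm-1 had rank 15159. In nlp-29 no pooled or replicate 1 region was found, and replicate 2 gave rank 18452. In abf-2, a defensin-like gene, replicate 1 alone gave a region, of rank 23109. These ranks lie deep in lists that include background.

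Lysozymes cleave bacterial cell walls, and of the 6 lysozyme genes lys-8 and lys-2 had a pooled region of rank 3000 or better. The share was 13.5% over all protein-coding genes and 9.19% with windows of up to 4000 bp, and 6 genes are few. In lys-2 the best region lay on V at 10280351 to 10280720 in coding sequence, 938 bp downstream of the 5' end, with pooled rank 1622 (signal 69.9) and ranks of 1978 (signal 31.5) in replicate 1 and 2370 (signal 38.9) in replicate 2. Closer to the lys-2 5' end, 91 bp upstream, a region had pooled rank 6015 but ranks of 23859 and 5531 in replicates 1 and 2. The neighbouring gene lys-1 had its best region in coding sequence too, 904 bp downstream, with pooled rank 4068, which 17.5% of all protein-coding genes reach, and ranks of 4081 and 4311 in replicates 1 and 2. Thus lys-1 and lys-2 were strongest towards the 3' part of the gene, while lys-8 was strongest upstream.

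For lys-7 the pooled list gave rank 12993, in coding sequence. Replicate 2 placed a region at 50 bp upstream of lys-7 at rank 4347, and replicate 1 an overlapping one, 211 bp upstream, at rank 20056, but the pooled list had none there. The best pooled region of ilys-3, an invertebrate-type lysozyme gene, had rank 9053 and lay 1912 bp upstream, nearer to the cadherin gene cdh-10. No list held a region in the lys-5 window. In lys-5, 27.1% of the 30-base words of the window occur again in the genome, the highest share of the 30 members, and how reads from repeated sequence were placed is not given in the sources used here. For the other members this share was at most 24.3% (irg-1), and its part in any count was not tested.

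Among the 4 genes with C-type lectin domains, clec-85 had the strongest region. It lay on IV at 2854253 to 2854622 in coding sequence, 3552 bp downstream of the outermost 5' end and 344 bp upstream of the 5' end of the shorter transcript Y54G2A.6b.1. Pooled rank was 1396 (signal 73.4), with ranks of 838 (signal 40.1) in replicate 1 and 2306 (signal 39.3) in replicate 2. Its nearest protein-coding 5' end was that of Y54G2A.49, whose window also holds the summit. In clec-67 the best region lay 128 bp upstream with pooled rank 4969, and TGATAA lay within 50 bp of its summit. The best ranks were 5020 in clec-60 and 5577 in clec-4. The clec-4 summit was nearer to clec-8, and the clec-60 summit lay in an intron of ZK666.11, whose 5' end was nearer.

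Infection response genes held the fewest regions. The 7 genes of this kind (irg-1, irg-4, irg-5, irg-6, dod-22, dod-24 and fmo-2) had 4 pooled regions in 26.3 kb of window, 15.2 per 100 kb, against 36.1 per 100 kb over all 24 effectors and 33.0 over all protein-coding genes. The best was in coding sequence of fmo-2, a flavin monooxygenase gene, with pooled rank 4667. Those of irg-6 and irg-5 had ranks 23423 and 29982. For irg-5 replicate 2 gave rank 5355 where replicate 1 had no region. Neither the pooled list nor replicate 1 listed a region for irg-1, a target of ZIP-2, and in replicate 2 its rank was 25841. In irg-4 both replicates had an upstream region, of ranks 29394 and 24462 in replicates 1 and 2, that the pooled list lacked. For dod-24 replicate 1 alone gave a region (rank 23116), and for dod-22 no list did. The repeated share of the window was 0.877% for dod-22 and 1.24% for dod-24.

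**Figure D2:**
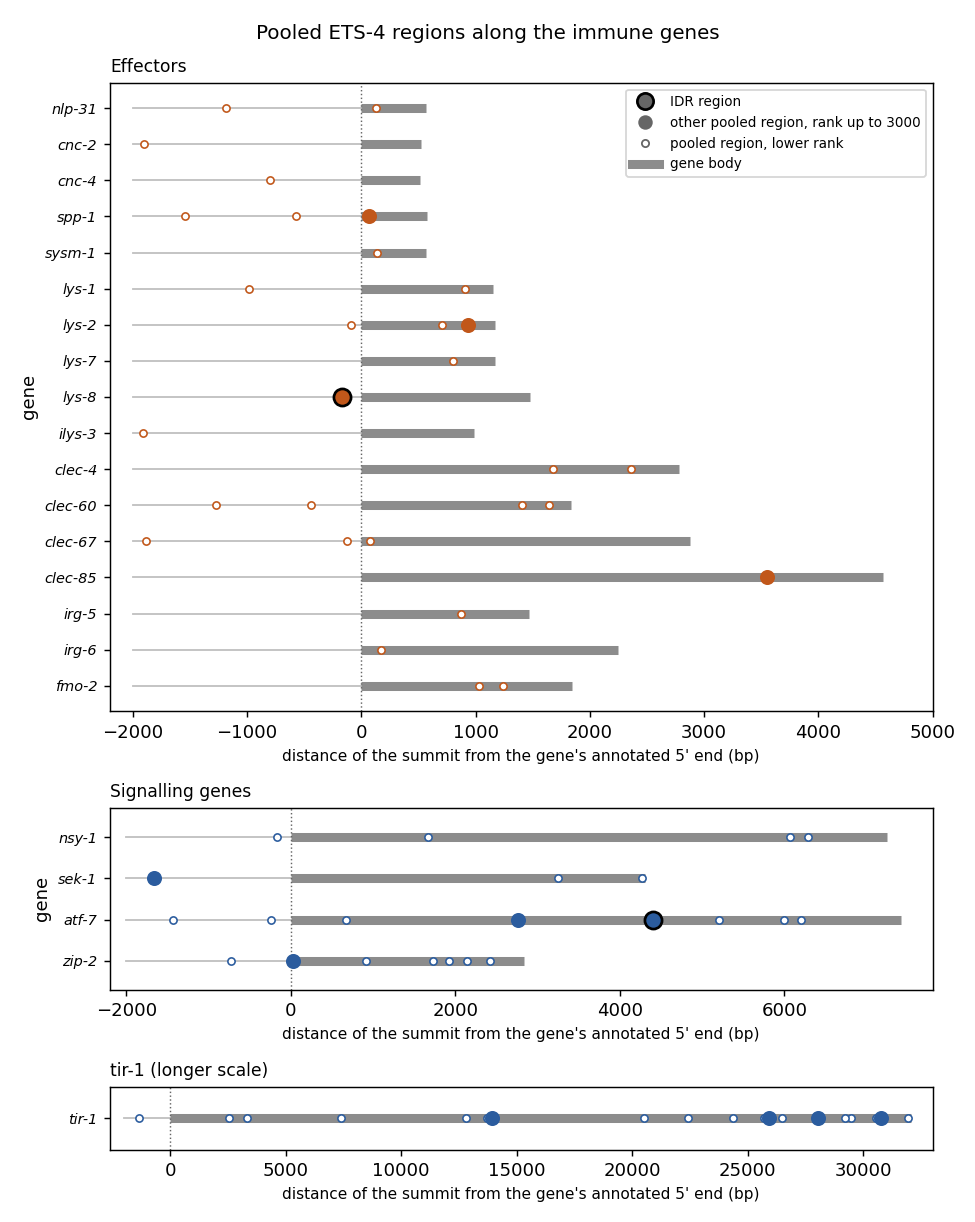
Position of each pooled region along its gene (horizontal axis, distance of the summit from the gene's annotated 5' end in bp, negative upstream) for the 17 effectors and 5 signalling genes with a pooled region, with tir-1 on a longer scale. Black-edged circles are IDR regions, other filled circles have a pooled rank of 3000 or better, small open circles have lower ranks, and grey bars are gene bodies: lys-8 is marked 173 bp upstream and atf-7 4396 bp inside the gene.

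The cascade genes differed widely from each other. At the top of the cascade, tir-1 encodes an adaptor with a TIR domain that cleaves NAD and is the worm counterpart of mammalian SARM1. Its window of 34053 bp held 19 pooled regions, 4 of them of rank 3000 or better. The strongest lay in an intron on III at 3873404 to 3873773, 78 bp upstream of the 5' end of transcript F13B10.1b.1, with pooled rank 1500 (signal 71.8). The replicates disagreed on it, with rank 538 (signal 45.3) in replicate 1 and rank 15822 (signal 20.1) in replicate 2. An intronic region at 3875546 to 3875915 had pooled rank 1690 and ranks of 3554 and 1453 in replicates 1 and 2. The region at 3887520 to 3887889 was 25 bp downstream of the 5' end of transcript F13B10.1c.1, with pooled rank 1814 and ranks of 2727 and 1269. The fourth, in coding sequence at 3870670 to 3871039, had pooled rank 2485 and ranks of 2231 and 2012, the closest agreement of the 4. For the regions of ranks 1500, 1690 and 2485 the nearest protein-coding gene 5' end was that of rpl-3, though no other gene's window held them. AGGAAG was within 50 bp of the summits of ranks 1690 and 1814, a word that 4.81% of IDR regions and 5.46% of pooled regions hold.

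The next kinase genes had weaker regions. In nsy-1, which encodes the MAP kinase kinase kinase, the best of 4 pooled regions was in coding sequence 6062 bp downstream. It had pooled rank 5173 and ranks of 6554 and 13853 in replicates 1 and 2, and the 5' end of wdr-83 was nearer. For sek-1, the MAP kinase kinase gene, a region 1668 bp upstream (X, 7814881 to 7815250) had pooled rank 2328 (signal 61.2), with ranks of 8432 (signal 20.46) in replicate 1 and 2970 (signal 36.1) in replicate 2. Its summit fell on a run of 22 cytosines, shown in the last printed line, and the summit also lay inside the window of R03G5.6. In the pmk-1 window, around the p38 kinase gene itself, the pooled list had no region. Replicate 1 placed one in an intron at rank 28477 and replicate 2 one in coding sequence at rank 29906, both near the end of their lists.

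In zip-2, 7 pooled regions lay in a window of 4833 bp. The strongest summit was 25 bp downstream of the 5' end (III, 832822 to 833191), with pooled rank 2128 (signal 63.3) and ranks of 8000 (signal 20.8) in replicate 1 and 2522 (signal 38.04) in replicate 2. It also lay 730 bp upstream of ceeh-1, an epoxide hydrolase gene on the other strand, and within 500 bp of the noncoding RNA genes linc-37 and K02F3.15, of which K02F3.15 is a snoRNA gene. Within the zip-2 body, replicate 1 had a region of rank 1111 in coding sequence, and replicate 2 had regions of ranks 2279 and 2280 there that did not overlap it. The pooled list split this stretch into 4 overlapping regions, the best of rank 8803.

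Just past the 3' ends of tir-1 and zip-2, IDR regions were present whose summits the window rule leaves out. The one beyond zip-2 (III, 835775 to 836144) had its summit 146 bp past the 3' end, in coding sequence of dos-3, with signal 142.7, IDR rank 170 and ranks of 445 and 120 in replicates 1 and 2. Its nearest protein-coding 5' end was that of zip-2, 2978 bp away. The one beyond tir-1 (III, 3869297 to 3869666) had its summit 108 bp past the 3' end, in the 3' UTR of the ribosomal protein gene rpl-3, with signal 128.2, IDR rank 249 and ranks of 244 and 260 in replicates 1 and 2. Both overlapped the gene they follow, by 40 bp in zip-2 and by 77 bp in tir-1, and both were stronger than any region with its summit in a member's window. With any overlap counted, the members with an IDR region become 4 of 30, against 5.85% of all genes.

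Compared by class, effectors held 30 pooled regions in 83.1 kb of window and signalling genes held 41 in 68.3 kb, which is 36.1 regions per 100 kb for effectors and 60.01 for signalling genes, against 33.0 over all protein-coding genes. Without tir-1 the signalling genes had 64.2 per 100 kb. In replicate 1 the densities were 44.5 for effectors and 52.7 for signalling genes, and in replicate 2 they were 27.7 and 64.4, so the order of the classes was the same and the gap differed. Each class had 1 IDR region, or 1.20 per 100 kb for effectors and 1.46 for signalling genes, against 1.14 over all protein-coding genes. A pooled region of any rank was in the window of 17 of 24 effectors and 5 of 6 signalling genes, or 73.3% of members against 69.3% of all genes. By window length these were 13 of 18 effectors up to 4000 bp (against 59.4% of all such genes), 4 of 6 effectors and 2 of 3 signalling genes between 4000 and 8000 bp (75.9%), and 3 of 3 signalling genes above 8000 bp (89.3%). In replicate 1 alone 25 of 30 members had a region (83.3%, against 72.4% of all genes), and in replicate 2 alone 21 of 30 (70.0%, against 69.9%). A region in each replicate list was found for 12 effectors and all 6 signalling genes, 18 of 30 members, against 57.9% of all genes.

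In each class some genes held more pooled regions than the 90th percentile of genes with windows of like length. The 7 pooled regions of zip-2 compare with a mean of 1.64 and a 90th percentile of 4 among all genes with windows between 4000 and 6000 bp. For atf-7 the 8 regions compare with a mean of 3.26 and a 90th percentile of 7 between 8000 and 12000 bp, and for tir-1 the 19 regions with a mean of 9.79 and a 90th percentile of 18 above 24000 bp. The other signalling genes were lower, with 4 in nsy-1, 3 in sek-1 and 0 in pmk-1. Among effectors, clec-60 had 4 regions, against a 90th percentile of 3 between 3000 and 4000 bp, and spp-1 had 3, against a 90th percentile of 2 up to 3000 bp. In a list cut into regions of usual width 370 bp, 1 broad enriched stretch can be counted as several regions, as in the zip-2 body.

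**Figure D3:**
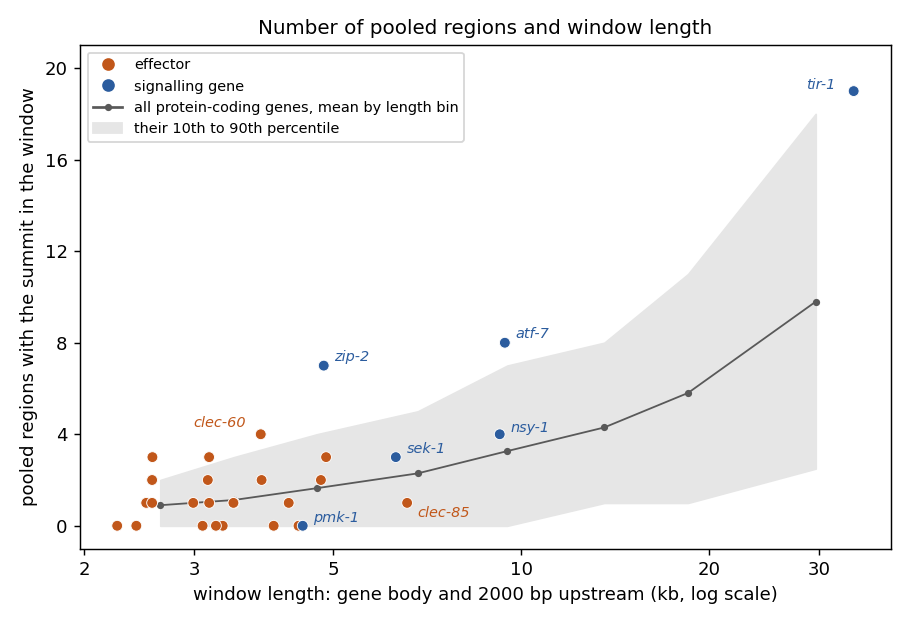
Number of pooled regions with the summit in the window (vertical axis) against window length in kb (horizontal axis, log scale) for the 24 effectors (orange) and 6 signalling genes (blue). The grey line is the mean over all protein-coding genes by length bin and the grey band their 10th to 90th percentile: zip-2 (7) and atf-7 (8) lie above the band, tir-1 (19) lies beyond its right end, and pmk-1 is at 0.

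The places of the regions were counted in each class, with no test. The same counts over all pooled regions were not made, so the values describe these regions only. Of the 30 pooled regions of effectors, 15 had the summit in a coding exon, 13 were upstream, 1 was in a 5' UTR and 1 in an intron. Of the 41 of signalling genes, 17 were in introns, 12 in coding exons, 6 upstream, 4 in a 5' UTR and 2 in a 3' UTR. Another protein-coding gene's window held the same summit for 19 of the 30 effector regions and for 7 of the 41 signalling regions. The member was the nearest protein-coding gene by 5' end for 18 of 30 and 17 of 41. The median window was shorter for effectors, as given above.

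The strongest regions of each replicate lay in the windows of 2 members, a share near that of all genes, and the genes differed. With 2 genes per replicate, these counts are too few to read as a trait of the members. Among the 1102 strongest regions of replicate 1, summits lay in the windows of clec-85 and tir-1, 2 of 30 members (6.67%, against 5.56% of all genes). Among those of replicate 2 they lay in the windows of lys-8 and atf-7, also 2 of 30 (against 5.46% of all genes). No member had an IDR region that overlapped the 1102 strongest regions of both replicates, a condition that 577 of the 1102 IDR regions met. Both members with an IDR region were thus among the strongest of replicate 2 and outside those of replicate 1.

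Words searched at the 12 regions of rank 3000 or better gave TGATAA in 6, at lys-8, atf-7, spp-1, clec-85, sek-1 and the coding region of tir-1, against 27.0% of IDR regions and 10.5% of pooled regions. Over all 71 pooled regions of the members, 21.1% held it. GGAA was in 7 of the 12, AGGAAG in 2, while CCGGAA was in none and the same held for CCGGAT. Over all 71 regions, CCGGAA was in 2 (3.72% of IDR regions and 5.06% of pooled regions hold it) and the word CCGGAT in 4 (1.63% and 2.89%). The shares of these words among all pooled regions of rank 3000 or better were not counted. The counts in the 12 are therefore not read as a trait of these genes. A match records letters in the reference and does not show which factor bound there.

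Other genes that act in worm immune signalling, from a list of 46, were counted by the same rule. An IDR region was in the window of 11 of them (23.9%, against 5.32% of all genes). Their median window was 6450 bp, and 6.08% of all genes with windows between 4000 and 8000 bp had an IDR region. The strongest was at cebp-1, which encodes a bZIP factor that acts with p38 kinases (signal 164.1, summit 660 bp upstream, ranks 79 and 136 in replicates 1 and 2). It was followed by the nuclear receptor gene nhr-8 (155.5, 18 bp downstream), by sma-9, a cofactor gene of the TGF-beta pathway (152.6, in an intron), and by mpk-2, a MAP kinase gene (116.0, in an intron). The intestinal GATA factor gene elt-2 had a region 495 bp upstream (114.4), and nipi-3, a Tribbles-like kinase gene needed for nlp-29 induction, had one 303 bp upstream (107.3). Intronic regions lay in hlh-30 (97.6), a lysosome regulator gene, in vhp-1 (92.2), the phosphatase gene that restrains PMK-1, and in daf-16 (90.2). At sma-2, a SMAD gene, the summit was 4 bp downstream of the 5' end (85.5). The list was drawn up with earlier results of these data known, and long windows hold more regions, as above. No conclusion is therefore drawn from its share.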

How the data were processed

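The members and gene lists were chosen with earlier results of these data known, so no set test was made and no p-value is given. All 4 region lists were used as the authors deposited them, as narrowPeak files on ce11. The accompanying text files say that a replicate's list derives from its own alignments with a control, the pooled list from both sets of alignments with that control, and the IDR list from the other 3. Signal and -log10 q values of regions are as deposited by the authors, and neither was rescaled. The aligner, peak caller, IDR threshold and read depth were not given in the sources used here, so precision is unknown. Coordinates are 1-based, and sequences come from the RefSeq WBcel235 genome. Ranks order the signal within a list. Windows ran from 2000 bp upstream to the 3' end, by gene strand (checked on simulated summits). Replicate regions are those overlapping a pooled region by at least 1 bp. Many worm transcripts are trans-spliced, so annotated 5' ends need not be start sites. Words were searched on both strands within 50 bp of a summit. Every member is named, with full values where the pooled rank was 3000 or better or an IDR region was present. In each further list, the 10 genes with the strongest IDR regions are named. Python 3.11.15, numpy 2.4.6, pandas 2.3.3 and matplotlib 3.10.9 were used.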

Additional observations from a re-analysis of the deposited data

How the results depend on the processing

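The count of members with an IDR region was also 2 (6.67%) with 1000 bp upstream (against 4.22% of all genes), 5000 bp (8.17%), the nearest 5' end (4.94%) or all pooled regions at the highest q value (6.7%), so that the members' share lies above the background with 2000 bp (5.32%) and below it with 5000 bp. With the nearest 5' end the genes were lys-8 and zip-2, since the atf-7 region lay 4389 bp from the 5' end of C07G2.5 and 4396 bp from that of atf-7. The 2000 bp upstream alone gave 1 member, 0 signalling genes, and 10 effectors with a pooled region in place of 17. Any overlap of 1 bp gave 4 members, 3 of them signalling genes. The 551 IDR regions with the highest signal gave 0 members, 0 effectors and 0 signalling genes (against 2.88% of all genes), and so did IDR regions among the strongest of both replicates (2.97%), where lys-8 and atf-7 were outside by their replicate 1 ranks. The IDR list rests on both replicates, so leaving out a replicate meant taking the 1102 strongest regions of the other. These gave 2 members each time. They were lys-8 and atf-7 without replicate 1 (against 5.46% of all genes) and clec-85 and tir-1 without replicate 2 (5.56%). With all regions of the remaining replicate, effectors with a region numbered 15 to 19 and signalling genes 6 each time, against 17 and 5 in the pooled list. Neither zip-2 nor fmo-2 has an IDR region, so leaving them out could not change the IDR counts. The best pooled signal of a member moved for 2 of 20 members with 1000 bp upstream, for 3 of 22 with 5000 bp, for 8 of 15 with the upstream part alone and for 2 of 22 with any overlap (tir-1 to 128.2 and zip-2 to 142.7). No paired analysis was possible because there is 1 group. How far read depth limits the ranks cannot be told, since the reads behind a region are unknown.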

Other observations

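Beyond the 30 genes, the numbered families of peptide, lysozyme, lectin and infection response genes and hpo-6 gave 293 further effectors, of which 16 had an IDR region in the window (5.46%, against 5.32% of all protein-coding genes). The saposin-like family, to which spp-1 belongs, held 8 of these 16 among 22 further members (36.4%), where the list ends at spp-23. The 8 genes rest on 6 distinct regions, since spp-3 shares 1 with spp-6 and spp-5 shares 1 with spp-4, and all 8 summits were upstream. The shared summits were nearest to spp-3 and spp-5. The spp-23 summit (signal 85.1, 1310 bp upstream) was nearer to spp-17. The strongest of the family was at spp-8 (signal 151.7, summit 162 bp upstream, ranks 399 and 125 in replicates 1 and 2). It was followed by spp-18 (125.7, 96 bp upstream, ranks 772 and 201) and spp-3 (114.1, 204 bp upstream, ranks 436 and 493), while spp-20 (110.2, 1532 bp upstream) had its summit nearer to spp-26, a gene outside the list. The family was singled out after its values were seen.

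Among 233 further C-type lectin genes 7 had an IDR region (3.0%). The share was 5.32% over all protein-coding genes and 3.43% over those with windows of up to 4000 bp. The strongest lectin gene regions were at clec-78 (142.5, 260 bp upstream) and clec-72 (111.1, 136 bp upstream). The invertebrate-type lysozyme gene ilys-5 had one 122 bp upstream (109.9, ranks 996 and 417). No further nlp, cnc, lys, abf or irg gene had one, of 9, 9, 5, 5 and 4 genes.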
